A study of Mus musculus with 12 samples.

Results

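The regulators of G protein signaling (RGS) described here were 10 genes: Rgs2, Rgs4, Rgs7, Rgs8, Rgs9, Rgs10, Rgs12, Rgs14, Rgs16 and Rgs20. They were picked by gene symbol, and each corresponded to 1 of the 47729 genes in the deposited count table. The table holds 1 mRNA sequencing library of the amygdala from each of 12 female C57/BL6 mice, an inbred wild-type strain that carried no engineered allele and received no drug. Before the tissue was taken, every mouse was tested in an elevated plus maze (EPM), then in a box with a light and a dark side (LD box), and last in a 3-chamber social interaction test (SIT). The labels give 11 mice a predicted anxiety state, with 3 less anxious (mice 3, 7 and 12), 4 anxious (mice 1, 4, 8 and 11) and 4 more anxious (mice 2, 6, 9 and 10). Mouse 5 has none, because the study removed it as an outlier in a principal component analysis of the RNA data. It entered no main comparison here, only an alternative fit of the behavior measures. The predicted states are tertiles of the second principal component (PC2) of the same RNA data, chosen by the study for its correlation with behavior, so a difference in a transcript between the groups is not independent of how the groups were made. The amygdala was dissected from slices by stereotaxic position, and the piece therefore held all cell types of that region.

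RGS proteins switch off signaling by G protein-coupled receptors. They bind the active, GTP-bound alpha subunit and speed up its GTP hydrolysis, and each subfamily prefers certain alpha subunits. Rgs2, Rgs4, Rgs8 and Rgs16 belong to the small R4 subfamily. Rgs7 and Rgs9 belong to the R7 subfamily, whose proteins are stable only with the beta subunit Gnb5 and are held at the membrane by Rgs7bp and related proteins. Rgs10, Rgs12 and Rgs14 form the R12 subfamily, and Rgs20 belongs to the RZ subfamily, which acts on Gz. In the brain Rgs2 has been linked with anxiety-like behavior, Rgs9 is a known transcript of striatal medium spiny neurons, and Rgs14 is known from pyramidal neurons of hippocampal area CA2.

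By GENCODE M21 on GRCm38 (mm10), all 10 were protein-coding genes with 1 identifier each. Rgs2 (ENSMUSG00000026360) lay on the minus strand of chromosome 1 at 143999338 to 144004161, Rgs7 (ENSMUSG00000026527) on the minus strand of chromosome 1 at 175059087 to 175492500, Rgs8 (ENSMUSG00000042671) on the plus strand of chromosome 1 at 153653025 to 153700323, and Rgs9 (ENSMUSG00000020599) on the minus strand of chromosome 11 at 109225355 to 109298129. Chromosome 1 also held Rgs4, Rgs16 and Rgs20, so that 6 of the 10 genes were on it. Exons of Rgs8, Rgs12, Rgs16 and Rgs20 overlapped an exon of a gene on the other strand (Gm29529, Gm43791, Gm28513 and Atp6v1h, respectively). The library kit kept strand information, but the sources used here do not state whether the counting used it, so reads of these 4 genes could not be fully told apart from those of their antisense partner.

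The promoter windows of 4 members are shown because Rgs8 had the highest correlations with other members, with Rgs9 (r = 0.775) and with Rgs2 (r = 0.730), and Rgs7 was the member with the smallest group p-values. Each is 300 bases of RefSeq's GRCm38.p6, from 250 bases before to 50 after the annotated start, written 5′ to 3′ on the strand of the gene. Of the 10 members, 8 were matched in that table, with 11 windows. Capitals mark every match, on either strand, to 1 of 7 motifs: the cAMP response element (CRE) TGACGTCA, its core TGACG, the AP-1 site TGANTCA, the EGR site GCGNGGGCG, the GC box GGGCGG, the CCAAT box CCAAT and the TATA box TATAAA. The core lies inside the full CRE, so a full CRE would count for both.
Rgs2, chr1:144004100-144004399, minus strand: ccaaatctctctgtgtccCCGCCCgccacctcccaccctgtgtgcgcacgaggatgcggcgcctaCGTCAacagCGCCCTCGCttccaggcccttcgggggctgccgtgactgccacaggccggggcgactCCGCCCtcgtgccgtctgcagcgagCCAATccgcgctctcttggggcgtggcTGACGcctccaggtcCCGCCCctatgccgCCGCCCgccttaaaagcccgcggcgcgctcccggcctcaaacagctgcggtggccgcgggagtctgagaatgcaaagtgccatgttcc
Rgs7, chr1:175492496-175492795, minus strand: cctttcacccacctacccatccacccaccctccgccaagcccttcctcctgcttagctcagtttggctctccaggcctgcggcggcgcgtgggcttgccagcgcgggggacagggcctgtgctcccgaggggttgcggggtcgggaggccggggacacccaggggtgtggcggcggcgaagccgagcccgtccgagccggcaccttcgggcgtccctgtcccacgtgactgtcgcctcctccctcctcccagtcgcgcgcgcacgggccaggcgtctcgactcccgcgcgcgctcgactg
Rgs8, chr1:153652787-153653086, plus strand: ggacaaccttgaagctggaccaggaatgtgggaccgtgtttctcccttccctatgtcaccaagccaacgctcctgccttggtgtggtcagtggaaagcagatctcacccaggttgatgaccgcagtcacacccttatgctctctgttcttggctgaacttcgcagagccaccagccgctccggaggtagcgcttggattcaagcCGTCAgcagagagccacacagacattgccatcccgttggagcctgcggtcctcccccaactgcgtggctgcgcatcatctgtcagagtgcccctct
Rgs9, chr11:109298132-109298431, minus strand: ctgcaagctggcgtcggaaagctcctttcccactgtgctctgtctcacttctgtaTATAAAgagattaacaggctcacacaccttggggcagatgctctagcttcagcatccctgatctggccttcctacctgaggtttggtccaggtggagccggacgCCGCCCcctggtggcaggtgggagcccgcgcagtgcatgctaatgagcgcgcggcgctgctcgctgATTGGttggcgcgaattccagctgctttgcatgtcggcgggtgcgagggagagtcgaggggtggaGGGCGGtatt

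The Rgs2 window held 2 CRE cores, at -185 and -67 from the start, an EGR site at -176, a CCAAT box at -94 and 4 GC boxes. The Rgs9 window held 2 GC boxes, a CCAAT box at -25 and a TATA box at -195, the Rgs8 window shown, the most upstream of 3 in the table, held 1 CRE core at -46, and the Rgs7 window held none of the 7 motifs. The other 2 Rgs8 windows held no CRE core and a CCAAT box each, at -152 and -100 from their starts. No window of a member held the full CRE. Of all 32851 windows of this length in the table, 1.79% held the full CRE, 20.8% the CRE core, 7.81% the AP-1 site, 5.55% the EGR site, 35.7% a GC box, 37.4% a CCAAT box and 13.6% a TATA box. The windows of Rgs2 and Rgs7 were 70.0% and 73.3% G or C, those of Rgs8 and Rgs9 58.3% and 60.3%, against a median of 52.7% over all windows. The counts measure transcripts and not promoter activity, so these matches describe the sequence only.

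All 10 transcripts were detected in every library. Totals of the 11 grouped libraries ran from 31745630 to 45142355 estimated reads (median 36578626), and the scarcest member in any mouse was Rgs16 with 188 reads. Levels are given as CPM (reads of a gene scaled to the TMM-corrected library total), and for comparison between genes as CPM per kilobase of exon. Per kilobase, Rgs4, an R4 member that acts on Gi, Go and Gq, was the most abundant at 68.7 ± 8.92 CPM per kb (SD, n = 11 mice), and its lowest mouse (53.1 CPM per kb) was above the highest mouse of any other member. Rgs10 (17.6 ± 3.45), Rgs2 (16.5 ± 2.16), Rgs7 (15.7 ± 2.69) and Rgs14 (15.0 ± 3.33) followed, and their ranges overlapped from each gene to the next. Rgs20 (5.91 ± 0.753), Rgs8 (5.19 ± 0.973), Rgs12 (5.15 ± 0.662), Rgs9 (3.79 ± 2.23) and Rgs16 (3.14 ± 0.640) made up the lower end, again with overlapping neighbors. The ranges separated at 2 places, between Rgs4 and Rgs10 and between Rgs14 (lowest mouse 9.37 CPM per kb) and Rgs20 (highest mouse 7.15 CPM per kb).

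**Figure D1:**
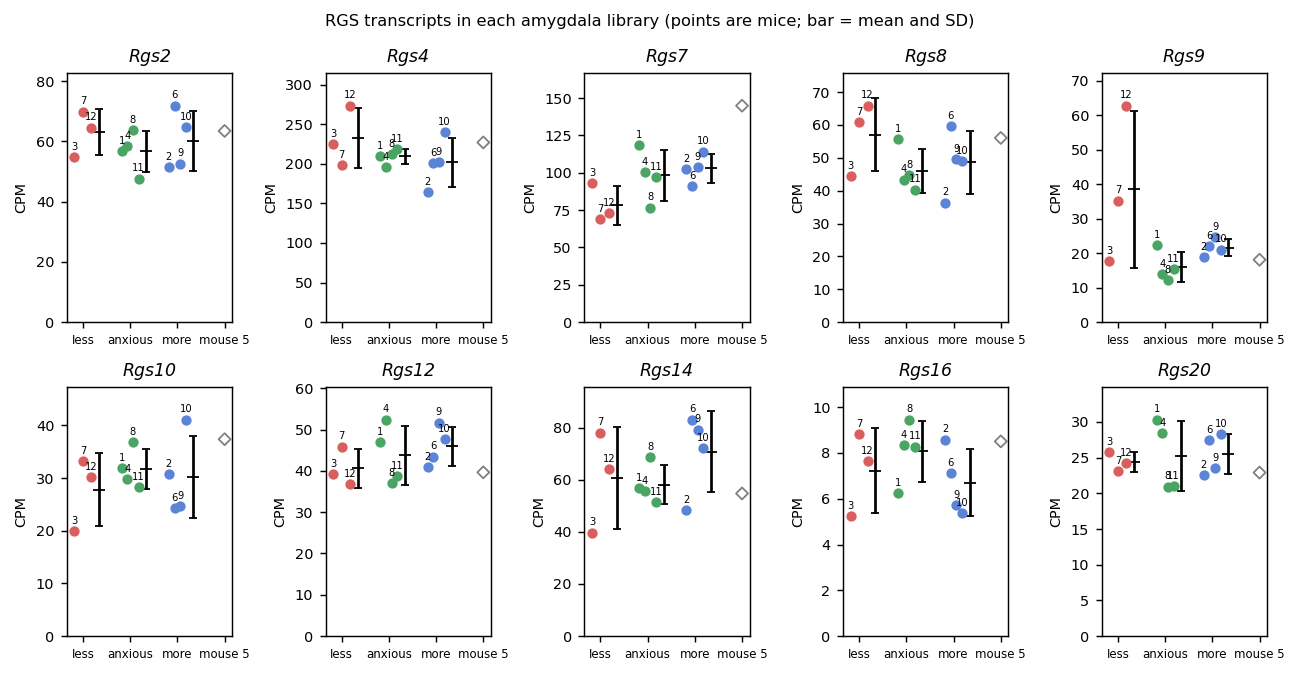
CPM of each RGS transcript (vertical axis, linear from 0) in the less anxious, anxious and more anxious mice, with 1 numbered point per mouse, the mean and SD of each group as a bar, and mouse 5, which has no group, as an open diamond. The points of the less and more anxious mice overlap in every panel. Rgs9 has the widest spread, from 12.2 CPM in mouse 8 to 62.8 CPM in mouse 12, and mouse 5 lies above all other mice for Rgs7.

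The members differed in how much they varied between mice. For Rgs9 the highest mouse was 5.17 times the lowest, and the SD of its log2 CPM, 0.657, was larger than that of 96.3% of the 15891 genes with a mean of at least 1 CPM (median SD 0.206). For the other 9 members this ratio lay between 1.43 (Rgs12) and 2.09 (Rgs14). Rgs20, Rgs12, Rgs4 and Rgs2 had an SD below the median of all genes.

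In the comparison of the predicted anxiety states, the question was whether any RGS transcript differed between mice at the ends of the state order. The less and more anxious mice overlapped for 10 of 10 members, while 10.0% of the 15891 genes with a mean of at least 1 CPM had no overlap. edgeR's quasi-likelihood test, with the first principal component (PC1) as a covariate, found 0 of 10 members changed across the 3 groups at a Benjamini-Hochberg adjusted p under 0.05 (0.00742% of the 26963 genes tested). Rgs7 and Rgs9 had an unadjusted p under 0.05 (2 of 10 members, against 6.35% of all genes tested), and DESeq2's likelihood ratio test, which called 186 genes in all, called Rgs7. Between the more and less anxious mice, 0 of 10 members passed the adjusted threshold (0.0445% of all genes) and 1 of 10 the unadjusted one (8.83%). The median log2 fold change of the members was -0.0226, with 5 members above and 5 below 0, and the median over all genes tested was 0.00366. Leaving out 1 mouse moved this fold change by over 1.5 times for 9 of the 10 members, all but Rgs7. These p-values measure the spread between separate mice of 1 inbred strain.

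Rgs7, the R7 member found widely in the brain, had a lower mean CPM in the less anxious mice than in either other group, with overlap between mice. It was at 93.3, 69.1 and 72.7 CPM in the less anxious mice, at 119, 100.5, 76.7 and 97.0 CPM in the anxious mice, and at 103, 91.0, 104 and 114 CPM in the more anxious mice. Mice 7 and 12 were the lowest of the 11, while mouse 3 was above mouse 6, so that the less and more anxious groups overlapped by this 1 pair. The group means were 78.4 ± 13.0, 98.2 ± 17.2 and 102.9 ± 9.45 CPM (SD, n = 3, 4 and 4). edgeR's log2 fold change of more against less anxious was 0.47 (SE 0.107, adjusted p = 0.174), and that of anxious against less anxious was 0.40 (SE 0.107, adjusted p = 0.987). The test of any change across the 3 groups gave an adjusted p = 0.430. DESeq2 gave a nearly equal fold change of 0.46 between more and less anxious mice but an adjusted p of 0.00851, and an adjusted p of 0.0281 for any change, so the call depended on the tool. The any-change test of DESeq2, the likelihood ratio test with PC1 as covariate, is of the kind the study used for its own gene list. PC1 was recomputed here, so the fit is not identical to the study's. Whether Rgs7 is in the study's list is not reported here. Without PC1 as a covariate, edgeR's fold change was 0.39 (adjusted p = 0.473).

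Rgs7 also followed 3 of the marker lists over the 11 mice. Its log2 CPM had a Pearson r of 0.674 (Spearman rho 0.773) with the mean log2 CPM of 6 excitatory neuron genes, of -0.698 (rho -0.809) with that of 6 choroid plexus genes and of -0.640 (rho -0.727) with that of 4 endothelial genes. Without the 2 mice farthest from the median of the list the r values were 0.731, -0.686 and -0.386. The choroid plexus mean ran from 0.81 to 0.91 on the log2 CPM scale in the less anxious mice, from -0.04 to 0.52 in the anxious mice and from -0.06 to 0.29 in the more anxious mice. The list mean thus separated the less anxious mice from the rest, but its 6 genes did not move together. In more against less anxious mice, 4 had a log2 fold change below 0 and 2 above 0 (Folr1 0.81 and Kcne2 0.03). Kcnj13 had the largest (-3.26, SE 0.772, any-change adjusted p = 0.504). It was the 1 of the 6 with an unadjusted any-change p under 0.05 (6.35% of all genes tested). Kcnj13, Folr1 and Kcne2 were scarce, with means of 1.59, 0.268 and 0.317 CPM. Ttr, a transthyretin transcript of choroid plexus, stayed at 1.02 to 5.57 CPM in all 11 mice. The excitatory neuron mean ran from 6.43 to 6.59 in the less anxious, from 6.41 to 6.85 in the anxious and from 6.68 to 7.19 in the more anxious mice, and the endothelial mean from 4.35 to 4.82, from 3.85 to 4.27 and from 3.84 to 4.22. The part of these cell types in the Rgs7 difference was not tested. In tissue of mixed cells, fewer cells of a type and less RNA per cell cannot be told apart.

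Rgs9 was the member with the largest fitted differences and the widest spread. It was at 17.6, 35.3 and 62.8 CPM in the less anxious mice, at 22.2, 14.0, 12.2 and 15.5 CPM in the anxious mice, and at 18.9, 22.1, 24.6 and 21.0 CPM in the more anxious mice. Mice 7 and 12 were the highest of all, but mouse 3, also less anxious, was lower than all 4 more anxious mice. Group means were 38.6 ± 22.8, 16.0 ± 4.40 and 21.6 ± 2.36 CPM (SD, n = 3, 4 and 4). edgeR's log2 fold change was -0.82 (SE 0.380, adjusted p = 0.597) for more against less anxious and -1.26 (SE 0.382, adjusted p = 0.987) for anxious against less anxious, with an adjusted p = 0.710 for any change. Without mouse 12 the fold change of more against less anxious was -0.29, and without mouse 3 it was -1.17 (adjusted p = 0.177). Without mouse 3 the fold change of anxious against less anxious was -1.62 with an adjusted p of 0.0368, and without mouse 12 it was -0.72, so that the size and the call both depended on single less anxious mice.

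The level of Rgs9 followed the transcripts of striatal medium spiny neurons. Over the 11 mice its log2 CPM had an r of 0.948 (rho 0.927) with the mean log2 CPM of 10 striatal neuron genes, and an r of 0.914 without mice 4 and 12, the farthest from the median. Among the 10 genes r ran from 0.624 for the neuropeptide precursor Tac1 to 0.936 for Adcy5, the adenylyl cyclase of these neurons. Drd2, the dopamine D2 receptor, had an r of 0.925, and Adora2a, an adenosine receptor, ordered the mice almost as Rgs9 did (rho 0.991). Adora2a was at 8.14, 24.4 and 47.6 CPM in the less anxious mice, at 15.3, 1.68, 1.42 and 4.02 CPM in the anxious mice, and at 4.55, 14.2, 19.5 and 11.3 CPM in the more anxious mice. These correlations share the same libraries and scaling, and they describe 11 points.

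The striatal genes were measured in every library, with means on the log2 CPM scale from 4.83 to 6.30 in the less anxious, from 4.26 to 5.32 in the anxious and from 4.63 to 5.43 in the more anxious mice. Of the 10 striatal genes, 10 had a fold change below 0 in the more against the less anxious mice (median log2 fold change -0.56). Drd1, Adcy5 and Gpr6 had an unadjusted any-change p under 0.05, against 6.35% of all genes tested. Their log2 fold changes were -0.53, -0.40 and -0.82 (any-change adjusted p-values from 0.640 to 0.714), and 0 of 10 passed after adjustment. The part of striatal tissue or striatal-type neurons in the Rgs9 values was not tested. Rgs9 also followed 5 oligodendrocyte genes (r = 0.752, rho 0.873, r = 0.717 without mice 8 and 11). Among all 15891 genes with a mean of at least 1 CPM, the 3 most like Rgs9 were Lrrc10b (r = 0.956), the homeobox gene Isl1 (r = 0.947) and Adcy5 (r = 0.936).

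**Figure D2:**
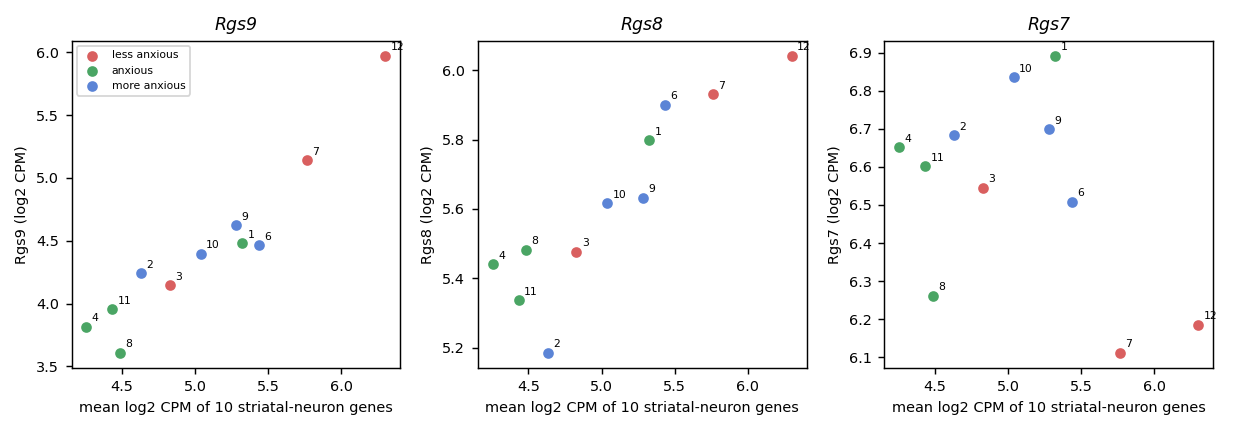
Log2 CPM of Rgs9, Rgs8 and Rgs7 (vertical axes) against the mean log2 CPM of 10 striatal neuron genes (horizontal axis), with 1 numbered point per mouse colored by predicted anxiety state (n = 11). Rgs9 (r = 0.948) and Rgs8 (r = 0.902) rise along the axis, with mice 7 and 12 at the upper right and mouse 3 among the lower points, while Rgs7 has an r of -0.412.

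The binding partners of the R7 proteins were followed beside Rgs7 and Rgs9. Gnb5, the obligate beta subunit, had a mean of 43.2 CPM and a log2 fold change of -0.03 (SE 0.163) in the more against the less anxious mice. The anchor Rgs7bp (mean 108 CPM) was at -0.06 (SE 0.139), and Gpr158, an orphan receptor that binds Rgs7 (mean 122 CPM), was at -0.08 (SE 0.143). Of 5 such partners, 0 had an unadjusted p under 0.05 for any change (6.35% of all genes tested), and their median log2 fold change was -0.03. Rgs9bp, the anchor of Rgs9 in photoreceptors, was at 0.48 CPM or less in all 11 mice, with a log2 fold change of 0.47 and a wide error (SE 0.560).

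Among the R4 members, Rgs2, which acts mainly on Gq, had closely spaced levels. It was at 54.9, 69.9 and 64.6 CPM in the less anxious mice, at 56.9, 58.4, 63.7 and 47.7 CPM in the anxious mice, and at 51.4, 71.9, 52.7 and 64.8 CPM in the more anxious mice. The highest mouse (mouse 6) was more anxious, the lowest (mouse 11) anxious, and the 3 groups overlapped. Group means were 63.1 ± 7.60, 56.7 ± 6.68 and 60.2 ± 9.86 CPM, and edgeR's log2 fold change was -0.12 (SE 0.110, adjusted p = 0.810) for more against less anxious and -0.22 (SE 0.111, adjusted p = 0.987) for anxious against less anxious. The 3 genes most like Rgs2 over the 11 mice were Gm38297 (r = 0.911, mean 1.20 CPM), the small GTPase Rhoc (r = 0.902) and Arpp21, a cAMP-regulated phosphoprotein (r = 0.886). Rgs2 had an r of 0.743 (rho 0.627) with the endothelial mean, and of 0.682 without mice 7 and 9.

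Rgs8, an R4 member that acts on Gi and Go, varied over the mice with Rgs9 of the R7 subfamily and nearly as closely with Rgs2 of its own. It was at 44.5, 60.9 and 65.9 CPM in the less anxious mice, at 55.6, 43.4, 44.6 and 40.3 CPM in the anxious mice, and at 36.3, 59.7, 49.6 and 49.0 CPM in the more anxious mice. As for Rgs9, mice 7 and 12 were the highest and mouse 3 was below 3 of the 4 more anxious mice. Its log2 fold change was -0.26 (SE 0.173, adjusted p = 0.739) for more against less anxious and -0.34 (SE 0.173, adjusted p = 0.987) for anxious against less anxious. Rgs8 and Rgs9 had an r of 0.775 (rho 0.809) over the 11 mice, the highest of the 45 pairs of members, followed by Rgs2 and Rgs8 (r = 0.730, rho 0.718). Rgs8 had an r of 0.902 (rho 0.918) with the striatal mean, of 0.833 (rho 0.845) with the oligodendrocyte mean and of 0.699 (rho 0.600) with the mean of 3 inhibitory neuron genes. Without the 2 mice farthest from each list's median these were 0.903, 0.912 and 0.635.

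Rgs4 and Rgs16 completed the R4 members. Rgs4 was at 225, 199 and 273 CPM in the less anxious mice, at 209.9, 196, 212 and 219 CPM in the anxious mice, and at 165, 201, 202 and 239.9 CPM in the more anxious mice. Mouse 12 was the highest and mouse 2 the lowest, and the log2 fold change of more against less anxious was -0.17 (SE 0.127, adjusted p = 0.757). Rgs16, an inducible R4 member and the scarcest of the 10, was at 5.22, 8.83 and 7.64 CPM in the less anxious mice, at 6.24, 8.33, 9.46 and 8.27 CPM in the anxious mice, and at 8.59, 7.13, 5.73 and 5.37 CPM in the more anxious mice. Its groups spanned nearly the same range, with a log2 fold change of -0.18 (SE 0.172, adjusted p = 0.827). Rgs16 had an r of 0.676 (rho 0.745) with the mean of 5 hippocampal CA2 genes, and of 0.791 without mice 8 and 12.

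The R12 members and Rgs20 gave no unadjusted p under 0.05 in the group tests. Rgs10, known from microglia as well as neurons, ran from 20.0 to 33.3 CPM in the less anxious, from 28.3 to 36.8 CPM in the anxious and from 24.4 to 41.1 CPM in the more anxious mice. Its log2 fold change of more against less anxious was 0.10 (SE 0.199, adjusted p = 0.936), and it turned to -0.06 without mouse 3 and to -0.12 without mouse 10. Its r with 7 microglia genes was -0.22, and with 10 immediate early genes 0.803 (rho 0.645), which fell to 0.491 without mice 3 and 9. Mouse 3 had the lowest immediate early gene mean of the 11 mice (3.09 on the log2 CPM scale, the next being 3.92) and the lowest Rgs10.

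Rgs14 overlapped between all groups. It ran from 39.7 to 78.1 CPM in the less anxious, from 51.5 to 68.7 CPM in the anxious and from 48.4 to 83.1 CPM in the more anxious mice, with a log2 fold change of 0.19 (SE 0.193, adjusted p = 0.846). It moved to 0.02 without mouse 3 and to 0.35 without mouse 2, which took it under an unadjusted p of 0.05 (adjusted p = 0.482). Its r with the CA2 genes was -0.24. Rgs12, a large multidomain RGS protein, ran from 36.8 to 45.9, from 37.0 to 52.4 and from 40.9 to 51.7 CPM in the less anxious, anxious and more anxious mice, with a log2 fold change of 0.18 (SE 0.137, adjusted p = 0.771). It had an r of 0.809 (rho 0.873) with the excitatory neuron mean, and of 0.721 without mice 8 and 9. Rgs20 ran from 23.1 to 25.8, from 21.0 to 30.3 and from 22.6 to 28.3 CPM, with a log2 fold change of 0.08 (SE 0.148, adjusted p = 0.933).

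**Figure D3:**
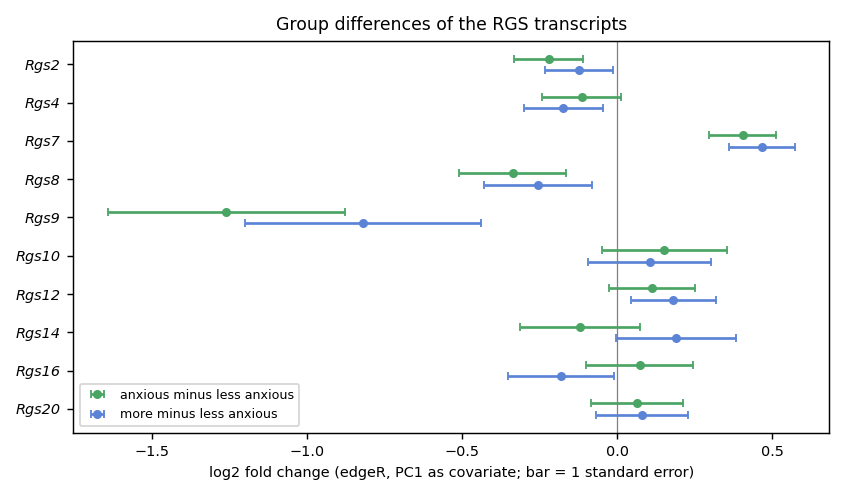
Log2 fold change of each RGS transcript (horizontal axis) from edgeR with PC1 as covariate, for anxious minus less anxious mice (green) and more anxious minus less anxious mice (blue), with bars of 1 standard error. Rgs7 lies right of 0 in both comparisons (0.40 and 0.47) and Rgs9 left of 0 in both (-1.26 and -0.82) with the widest bars. Both comparisons use the same 3 less anxious mice.

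Across the adjacent groups, 2 of 10 members had an unadjusted p under 0.05 between anxious and less anxious mice (Rgs7 and Rgs9, against 4.74% of all genes tested) and 0 of 10 between more anxious and anxious mice (4.57% of all genes tested). After adjustment 0 of 10 passed in either comparison, with 0.00371% and 0% of all genes. The 3 group comparisons share samples, so the values of 1 are not independent of the others.

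The behavior measures come from the mice and not from the RNA, and each was tested on its own in the 11 mice by the edgeR slope per SD of the measure. Among all members and 7 measures, 0 slopes passed an adjusted p of 0.05, which 0.00742% of all genes passed for time in the light, 0% for distance in the light, open-arm time and entries, and 0.0150%, 0.0111% and 0.0223% for the SIT ratio at 3, 5 and 10 min. The number of entries into the arms of the EPM, a measure of activity, had unadjusted p-values under 0.05 for 4 of 10 members, against 6.97% of all genes tested. Rgs4 had a slope of 0.14 on the log2 scale per SD of entries (SE 0.0441, adjusted p = 0.594), Rgs8 of 0.17 (SE 0.0619, adjusted p = 0.617) and Rgs2 of 0.12 (SE 0.0489, adjusted p = 0.668). Rgs7 had a slope of -0.15 (SE 0.0612, adjusted p = 0.652), and Rgs9 a slope of 0.33 (SE 0.167, adjusted p = 0.755).

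Mice 2 and 12 stood at the ends of the entry counts. Mouse 2 made 6 entries, against 15 to 42 in the other 10 mice, and had the lowest Rgs4 (165 CPM) and Rgs8 (36.3 CPM) of the 11 mice. Mouse 12 made the most entries, 42, and had the highest Rgs4, Rgs8 and Rgs9. Without mouse 2, Rgs7 remained under an unadjusted p of 0.05 while Rgs2, Rgs4 (slope 0.09) and Rgs8 (slope 0.10) did not (1 of 10 members, against 3.74% of all genes tested). Without mouse 12, Rgs7, with a slope of -0.11, was not under it, and again only 1 of 10 members was (5.61% of all genes tested).

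With the share of EPM time spent in open arms, Rgs7 had a slope of -0.18 per SD (SE 0.0550, adjusted p = 0.660), the 1 of 10 members under an unadjusted 0.05 (5.84% of all genes tested). The mice with the least open-arm time, mice 2, 10, 9 and 1 at 2.33%, 3.25%, 4.30% and 6.73%, had the highest Rgs7 at 103, 114, 104 and 119 CPM. Mice 6, 12 and 7 had the most open-arm time, 29.2%, 24.6% and 24.5%, and had 91.0, 72.7 and 69.1 CPM of Rgs7. Mouse 6 is labeled more anxious, yet it also had the largest shares of time (46.6%) and distance (41.9%) in the light. The predicted state of a mouse is thus not its behavior in each test. Mouse 5, which the study removed as an outlier and which was in no main fit, is given apart. It spent 7.34% of its time in open arms and had 145 CPM.

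In the LD box, Rgs8 had a slope of 0.15 with the share of distance covered in the light (SE 0.0661, adjusted p = 0.848), the 1 of 10 members under an unadjusted 0.05 (5.80% of all genes tested), and 0 of 10 members reached it for the share of time in the light (3.55%). Without mouse 2 the slope of Rgs8 with distance was 0.10 and not under an unadjusted 0.05. Nor was it under 0.05 without mouse 1, without mouse 8 or without mouse 12, and it was in 12 of 19 alternative fits. In the SIT the labels give a box-to-zone ratio over the first 3, 5 and 10 min. The methods use box for direct contact beside the stranger mouse and zone for more distant contact, so a higher ratio is relatively more direct contact. Rgs16 had a slope of -0.22 with the ratio at 3 min in the 10 mice with a value (SE 0.0798, adjusted p = 0.501), the 1 of 10 members under an unadjusted 0.05 (7.65% of all genes tested). At 5 and 10 min 0 of 10 members reached it (6.56% and 8.05%). Rgs9 had slopes from -0.34 to -0.31 at the 3 times, with adjusted p-values from 0.740 to 0.820.

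**Figure D4:**
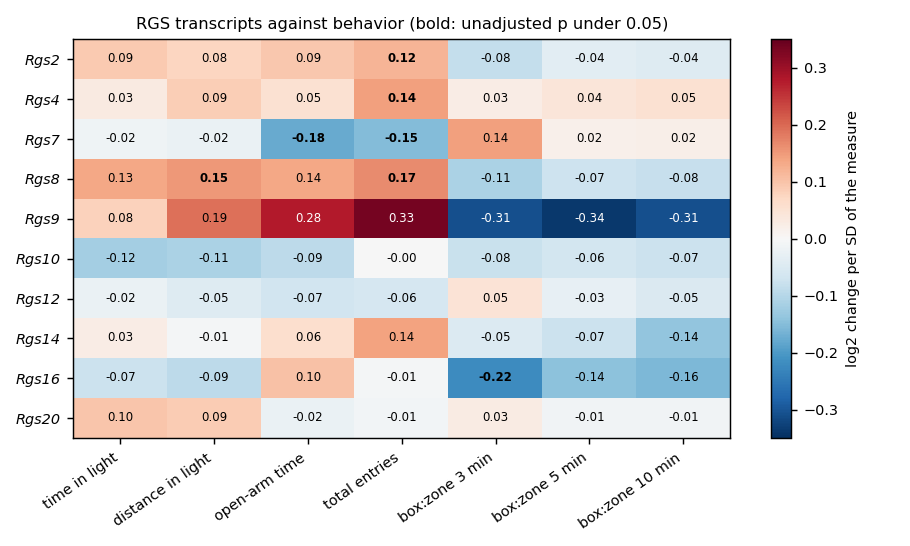
Slope of each RGS transcript (rows) on each of 7 behavior measures (columns), as log2 change per SD of the measure from edgeR, with red above and blue below 0 and slopes with an unadjusted p under 0.05 in bold. The 7 bold cells are Rgs2, Rgs4, Rgs7 and Rgs8 with total entries, Rgs7 with open-arm time, Rgs8 with distance in the light and Rgs16 with the ratio at 3 min. Rgs9 has the deepest colors but no bold cell.

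The marker lists describe the cell types whose transcripts were in the libraries. Of 13 lists of marker and activity genes, the striatal list had the highest r with any member (0.948 for Rgs9). The amygdala nucleus genes were present in every library, with means from 3.90 to 4.73 on the log2 CPM scale, and Sst was the most abundant at 182 to 466 CPM. Pituitary hormone transcripts were at or near 0 in most mice but reached 32.1 CPM for Prl and 20.0 CPM for Gh in mouse 4. The paper, with its own test, names prolactin and KCNJ13 as the genes lowered most in its high anxiety mice. All 4 pituitary genes had an unadjusted any-change p under 0.05, against 6.35% of all genes tested (adjusted p-values from 0.555 for Prl to 0.674 for Cga). Their mean was highest in mice 4 and 11 (2.80 and 1.90 on the log2 CPM scale, and -0.51 or less in the other mice). As they come from the same libraries, the 4 calls are not independent. The r of their mean with Rgs7 was -0.04 and with Rgs9 -0.25. Further listed genes under an unadjusted any-change p of 0.05 included Junb, Tac2, Tbr1, Slc1a3 and Flt1, with more against less anxious values on the log2 scale of 1.10, -0.60, 0.67, -0.50 and -0.62 and adjusted p-values from 0.493 to 0.757.

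**Figure D5:**
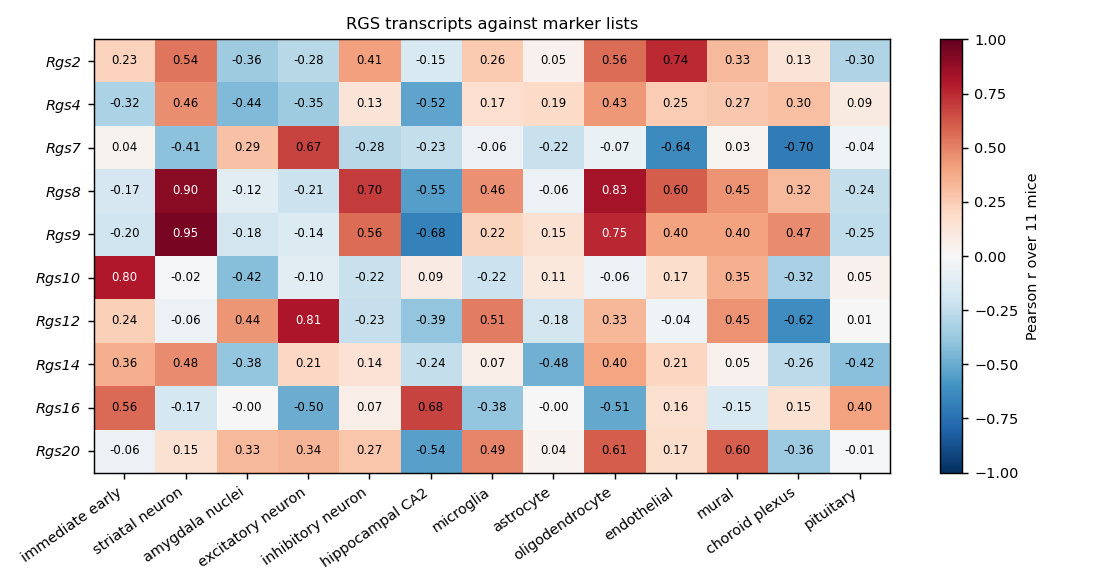
Pearson r over 11 mice between the log2 CPM of each RGS transcript (rows) and the mean log2 CPM of each of 13 marker and activity lists (columns), with red above and blue below 0. Rgs9 and Rgs8 are highest with the striatal list (0.948 and 0.902), Rgs12 with the excitatory list (0.809) and Rgs10 with the immediate early list (0.803).

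The other RGS genes and the G protein alpha subunits were followed as the rest of the pathway. Of 12 further RGS genes, 0 had an unadjusted any-change p under 0.05 (6.35% of all genes tested), and their median log2 fold change of more against less anxious was 0.14. This median includes nearly absent genes. Rgs1, Rgs18 and Rgs21 had means of 0.145, 0.0727 and 0.0240 CPM. Their log2 fold changes were 1.52, 0.71 and 0.77, with wide errors (SE from 0.998 to 1.06). Rgs17, an RZ member with a mean of 105 CPM, was at -0.21 (SE 0.117). Rgs5, an R4 member of pericytes with a mean of 75.1 CPM, was at -0.27 (SE 0.123, adjusted p = 0.549). It was the 1 of the 12 under an unadjusted 0.05 in that comparison (8.83% of all genes tested). Rgs6, the R7 relative of Rgs7 and Rgs9, was at 0.31 (SE 0.272).

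Of 12 G protein alpha subunit genes, listed whether or not the RGS members act on them, 1 had an unadjusted any-change p under 0.05 (6.35% of all genes tested). Gnai2, which encodes a Gi subunit, was at 119, 149 and 137 CPM in the less anxious mice, at 127, 141, 195 and 117 CPM in the anxious mice, and at 326, 269, 328 and 192 CPM in the more anxious mice. All 4 more anxious mice were above the 3 less anxious mice, and 10.0% of the 15891 genes with a mean of at least 1 CPM also had no overlap. edgeR's log2 fold change was 0.99 (SE 0.182, adjusted p = 0.110), and its any-change adjusted p was 0.114. The paper, with its own test, names GNAI2 among the raised genes of its opioid signaling pathway. Gnas and Gnao1, the most abundant alpha subunits with means of 1759 and 595 CPM, were at 0.09 (SE 0.108) and 0.31 (SE 0.176), and the median of the 12 was 0.01.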

How the data were processed

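The authors prepared 1 stranded amygdala library from each of 12 female C57/BL6 mice and read them as single ends on 1 NextSeq500 run. After adapter trimming (cutadapt) and a quality check by STAR alignment to mm10, the authors quantified transcripts with Salmon and summed them per gene with tximport. The estimated counts were deposited without normalization as whole numbers for 47729 genes. Tool versions, the annotation release and the use of strand are not given in the sources used here. GENCODE M21 (GRCm38) gave names for 47310 of the genes (99.1%).

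The 26963 genes whose reads summed to 10 or more in the 11 grouped mice were tested in R 4.3.3 with edgeR 4.0.16 (TMM factors, robust quasi-likelihood fit, PC1 of the variance-stabilized counts as covariate), and p-values were adjusted by Benjamini-Hochberg over all of them, with a threshold of 0.05. PC1 and PC2 held 19.9% and 14.6% of the variance. The 7 behavior measures were fitted separately without covariate. DESeq2 1.42.0 was an alternative. Its likelihood ratio test with PC1 as covariate was the kind of test the study used, but with PC1 recomputed here. Log2 CPM used a prior count of 2. Tables and figures used Python 3.11.15, pandas 2.3.3 and matplotlib 3.10.9, and procedures were tested on simulated data. Totals of 31745630 to 45142355 reads (mouse 5: 32682574) limit the precision of scarce transcripts, and a count of 0 means only fewer than about 3 reads. Correlations are descriptions without a test.

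Members and gene lists were chosen with earlier results of these data known. Named were all members, the 3 genes most like Rgs2 and Rgs9, listed genes with an unadjusted any-change p under 0.05 or otherwise up to 3 of the most abundant per list, and behavior slopes with an unadjusted p under 0.05. Rgs1, Rgs5, Rgs6, Rgs18, Rgs21, Rgs9bp, Ttr, Folr1, Kcne2, Drd2, Adora2a and Tac1 were named after their values were seen. Some listed genes that this rule names are not reported here.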

Additional observations from a re-analysis of the deposited data

Results flagged for a closer look

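Rgs7 in mouse 5, the library without a predicted anxiety state, was at 144.9 CPM, above the highest of the 11 grouped mice (118.7 CPM in mouse 1). It was picked out because it lies outside the main comparisons of the report and beyond the range of the libraries used in them. The study removed mouse 5 as an outlier, and its library had a read in fewer genes (23768) than any grouped mouse (lowest 26378, in mouse 3). The other 9 members of mouse 5 lay within the range of the 11 mice. No sample stood apart by Dixon's criterion in the 20 groups of 4 mice tested (10 members in the anxious and the more anxious mice), and the 3 less anxious mice were too few for it.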

How the results depend on the processing

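No paired analysis was possible because the labels give each mouse its own number and no number joins mice of different groups. Of 334 member values under the alternatives, 330 kept their direction and side of the threshold, 2 passed it (Rgs7 with DESeq2 and Rgs9 in anxious against less anxious mice without mouse 3) and 2 reversed (Rgs10 in more against less anxious mice, -0.06 without mouse 3 and -0.12 without mouse 10, with a highest value of 0.23). Over 17 alternatives the fold change of Rgs7 between more and less anxious mice stayed between 0.39 and 0.52. For any change across the groups, 1 member had an unadjusted p under 0.05 with the groups as a number (9.18% of all genes) and 1 passed after adjustment with DESeq2, and of all genes (2 in the report) 9 passed with all genes with at least 1 read, 0 with a mean CPM of at least 1, 1 without the robust option, 0 without PC1, 22 with the groups as a number and 186 with DESeq2. For more against less anxious mice, 2 members had an unadjusted p under 0.05 with a mean CPM of at least 1, without the robust option or without PC1 (11.6%, 9.09% and 8.42% of all genes), 1 passed after adjustment with DESeq2, and of all genes (12 in the report) 25, 2, 2, 3 and 304 passed with at least 1 read, a mean CPM of at least 1, without the robust option, without PC1 and with DESeq2. Ranks in place of values gave 1 member for time in the light, 0 for distance in the light and 2 for open-arm time (6.07%, 6.59% and 6.25% of all genes), and mouse 5 included gave 0 for distance in the light (4.53%). The causes were not tested.

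Leaving out 1 mouse at a time gave 1 to 3 members with an unadjusted p under 0.05 for any change, 1 to 2 for more against less anxious, 2 to 4 for anxious against less anxious and 0 to 2 for more against anxious mice. The share of all genes tested ran from 4.57% to 8.01%, from 6.43% to 9.76%, from 3.74% to 6.76% and from 3.49% to 7.05% in the same runs. Over all genes it gave 0 to 4 calls for any change and 0 to 24 for more against less anxious mice (0 without mouse 3), and 0 to 1 members were called for anxious against less anxious mice (Rgs9, without mouse 3). For the behavior measures it gave 0 to 2 members for time in the light, 0 to 2 for distance in the light, 1 to 3 for open-arm time, 1 to 5 for entries, and 1 to 3, 0 to 1 and 0 to 2 for the ratio at 3, 5 and 10 min. The share of all genes in these runs lay between 2.78% and 10.8% over the 7 measures, and between 3.74% and 7.92% for entries. Depth does not limit the members, each of which had at least 188 reads per mouse.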
